A study of Mus musculus with 16 samples.

Results

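Immediate early genes are the 10 genes Fos, Fosb, Junb, Egr1, Egr3, Nr4a1, Npas4, Arc, Ier2 and Dusp1, picked by gene symbol from the 24411 genes of the deposited tables. All 10 had a row in both the count and the TPM (transcripts scaled for gene length and library size) table, and all 10 were among the 16091 genes tested. RNA was sequenced from a 5 mm section of spinal cord of 16 female C57BL/6J mice with no engineered allele named. The SCI + Atorvastatin group (n = 7) and the SCI + Vehicle group (n = 7) were injured at 12 wk of age by lateral compression of the thoracic cord to 0.25 mm. From 2 wk after injury they were injected i.p. each day for 4 wk, with atorvastatin at 10 mg/kg, a statin that blocks HMG-CoA reductase, or with the vehicle alone, and the cord was taken at 6 wk. The Uninjured Control group held 2 mice, labelled as 12 wk old, that had neither injury nor injections, while the methods of the study give an older age for them when the cord was taken. The controls therefore differ from the SCI groups in surgery, injections and age together, and these cannot be told apart.

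Immediate early genes are transcribed within minutes of a stimulus, because the proteins that switch them on, such as CREB, SRF and its partner ELK1, are already present and only need to be activated by calcium or MAP kinase signalling. Most of them encode transcription factors that go on to set a slower wave of genes, and their mRNAs decay quickly. In the nervous system they are widely read as marks of recently active neurons, and glia and immune cells also induce several of them after injury or stress.

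The promoters of these genes are shown because the same short element, the core TGACG of the CREB binding site (CRE), recurred in all of those read. RefSeq promoters (build GRCm38.p6, the patch release of the mm10 assembly the authors used) matched 6 of the 10 genes, namely Fos, Fosb, Junb, Nr4a1, Npas4 and Dusp1. Those of 4 genes are printed 5′ to 3′ on the coding strand, with TGACG or its reverse complement CGTCA in capitals. They are Fos at chr12:85473640-85473889 (plus strand), Junb at chr8:84978749-84978998 (minus strand), Nr4a1 at chr15:101266596-101266845 (plus strand) and Dusp1 at chr17:26508520-26508722 (minus strand). The Nr4a1 window lies inside the span of the gene (chr15:101253902-101274795), before a start within that span.
Fos: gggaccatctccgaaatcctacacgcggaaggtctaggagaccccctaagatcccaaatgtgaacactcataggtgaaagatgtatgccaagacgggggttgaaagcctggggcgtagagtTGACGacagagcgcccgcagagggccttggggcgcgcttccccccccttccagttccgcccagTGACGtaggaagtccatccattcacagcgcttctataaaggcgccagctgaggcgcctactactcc
Junb: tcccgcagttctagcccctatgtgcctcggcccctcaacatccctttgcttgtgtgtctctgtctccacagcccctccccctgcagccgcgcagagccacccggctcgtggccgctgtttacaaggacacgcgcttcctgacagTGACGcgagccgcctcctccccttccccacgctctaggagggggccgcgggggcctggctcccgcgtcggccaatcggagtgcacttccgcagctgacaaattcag
Nr4a1: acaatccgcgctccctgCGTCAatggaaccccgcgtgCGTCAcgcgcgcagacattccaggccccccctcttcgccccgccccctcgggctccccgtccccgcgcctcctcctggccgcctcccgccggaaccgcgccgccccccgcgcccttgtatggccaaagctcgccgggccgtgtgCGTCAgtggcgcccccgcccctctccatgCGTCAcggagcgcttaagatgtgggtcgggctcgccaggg
Dusp1: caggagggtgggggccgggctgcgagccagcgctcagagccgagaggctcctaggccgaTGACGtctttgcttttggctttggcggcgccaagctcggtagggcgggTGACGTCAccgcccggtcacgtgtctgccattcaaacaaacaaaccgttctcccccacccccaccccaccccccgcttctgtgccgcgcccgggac
Each run holds the 250 bases before the RefSeq start, except that of Dusp1, which leaves out the 47 bases that GENCODE places in an exon of the gene.

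In the 250 bases before the start, the TGACG element was present on either strand in 6 of the 6 promoters, against 17.9% of 27025 promoters of the same length. At least 2 copies stood in 4 of the 6 (Fos, Nr4a1, Npas4 and Dusp1), against 4.02% of all promoters, and Nr4a1 held 4. The windows searched include bases that GENCODE places in exons, namely all 250 of Npas4, 47 of Dusp1 and 6 of Fosb. The Npas4 matches therefore lie in exon sequence, and the Npas4 window is not printed. The full palindrome TGACGTCA, which contains the core on both strands, was found in Dusp1 and in 1.62% of all promoters. The EGR site GCGNGGGCG was found in Fosb and Nr4a1, and in 4.65% of all promoters. The coding strand of Fos held TATAAA (8.12% of all promoters) and Junb held CCAAT, searched on both strands (34.5%). Neither the AP-1 site TGANTCA (6.87% of all promoters, either strand) nor a CArG box, the SRF site (1.40%), was matched in these 6 windows. GC content of the printed runs was 58.4% in Fos, 66.4% in Junb, 74.4% in Nr4a1 and 68.0% in Dusp1, against a median of 52% over all promoters. The shares over all promoters were not matched for GC content, and TGACG is featured because it recurred in these same windows. The matches thus describe letters in a window, were not tested against all promoters, and do not show binding.

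Libraries held 14823292 to 25579826 counts on genes, and a count of 0 allows up to 3 counts, or 0.117 to 0.205 CPM (counts scaled to library size), a limit that covers counting error only since reads are not independent molecules. SCI + Vehicle replicate 4 had the lowest total. The 2 Uninjured Control libraries stood apart from the rest, with counts in 12732 and 12356 genes against 16399 to 19338 in the SCI mice. They also held liver transcripts, with a summed TPM over 7 liver markers (Alb, Apoa1 and others) of 1192 and 6994 against 1.80 to 16.0 in the SCI mice. Neuron, astrocyte and oligodendrocyte markers and Hox genes of the trunk were present in every library, as fits the labelled tissue.

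In the injured cord the 10 genes spanned a wide range of levels. Over the 14 SCI mice the mean TPM was highest for Junb (34.1 ± 8.35, SD), a subunit of the AP-1 transcription factor. The zinc finger transcription factor Egr1 followed at 27.6 ± 5.79, and Arc, a protein of dendrites that regulates glutamate receptors at synapses, at 23.2 ± 7.25. Fos, another AP-1 subunit, had a mean of 19.7 ± 4.72 TPM, and Dusp1, a phosphatase that switches off MAP kinases, 17.6 ± 5.52. Below them stood the nuclear receptor Nr4a1 with 12.8 ± 4.02 TPM and the nuclear protein gene Ier2 with 9.40 ± 5.31. The lowest means were those of Egr3 (2.54 ± 1.38), Npas4 (1.70 ± 0.892) and Fosb (1.40 ± 1.09). No neighbours in this order had ranges over mice that stayed apart. The step from Ier2 down to Egr3 came nearest, with Ier2 higher in 13 of 14 mice, while Arc was above Fos in 9 of 14 mice and Fos above Dusp1 in 9 of 14.

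The comparison SCI + Atorvastatin vs. SCI + Vehicle asks what the drug changed in the injured cord. Of the 10 genes, 0 were called in this comparison by edgeR at an unadjusted p below 0.001 with a change above 25%, a limit that 0.106% of all 16091 genes passed. At an adjusted p below 0.05 the count was 0 for the 10 genes and 0 for all genes. At an unadjusted p below 0.05, 1 of the 10 (Fosb) passed, against 7.03% of all genes. DESeq2 called 0 of the 10, as did limma on log2(TPM + 1). The treatment groups overlapped for each of the 10 genes, and 0.087% of all genes tested had groups that did not. Values below are TMM-normalised CPM per mouse, and differences are log2 fold changes with standard errors (SE) and 95% intervals.

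**Figure D1:**
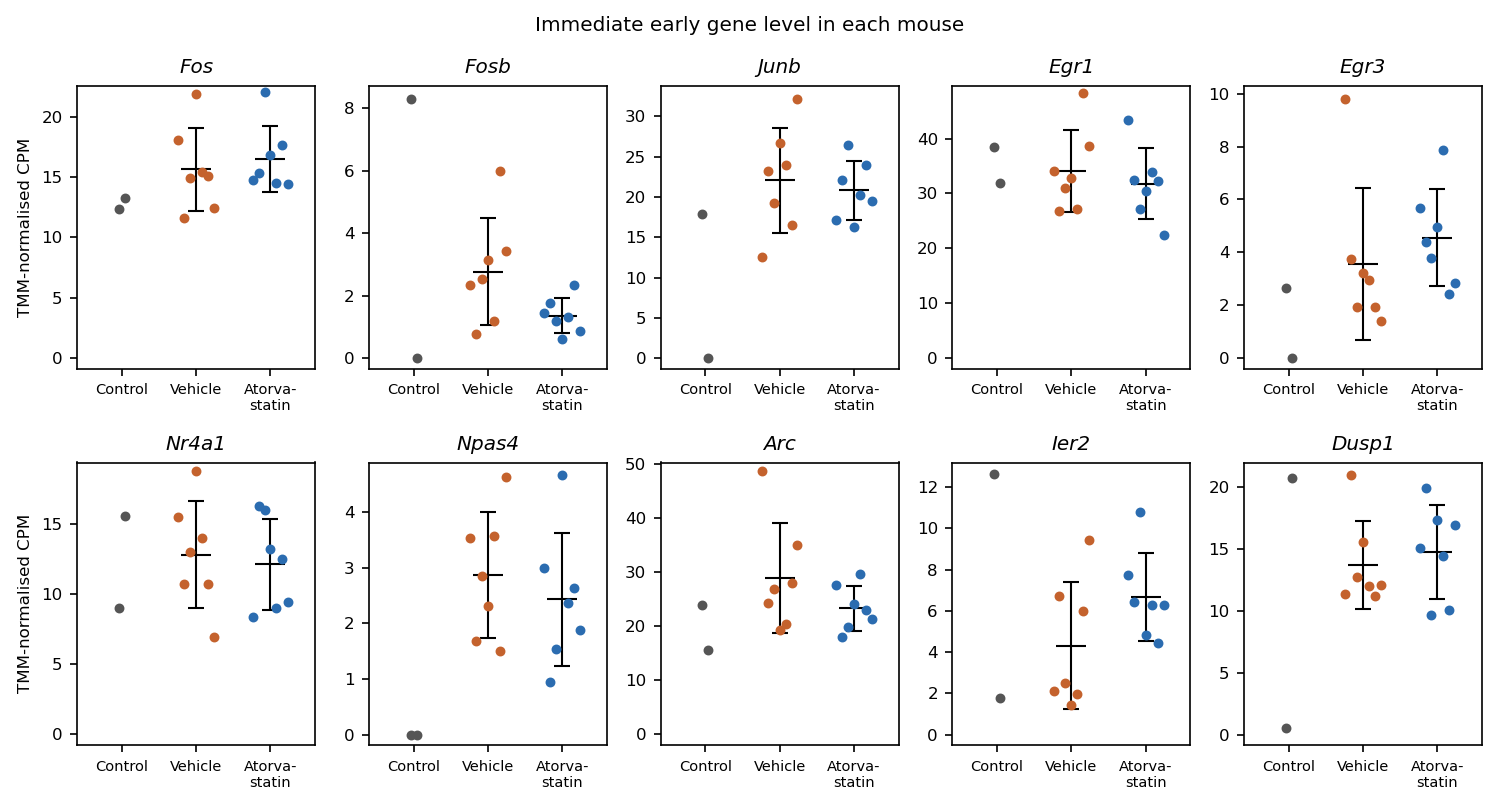
TMM-normalised CPM (linear axis, 1 panel per gene) of the 10 immediate early genes in each mouse of the Uninjured Control, SCI + Vehicle and SCI + Atorvastatin groups, with 1 point per mouse and bars for the mean ± SD of the 7 mice in each SCI group. The 2 control mice sit close together for Fos and Egr1 and far apart for Fosb, Junb, Ier2 and Dusp1, while the SCI groups overlap in every panel.

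Among the AP-1 genes, Fos (chr12:85473890-85477274, GRCm38.p6) ranged from 14.4 to 22.1 CPM in the SCI + Atorvastatin group (median 15.4) and from 11.6 to 21.9 CPM in the SCI + Vehicle group (median 15.1). The ranges lay almost on top of each other. The difference for Fos was 0.08 (SE 0.15), with an interval of -0.24 to 0.40 and an adjusted p of 0.948. Junb (chr8:84976909-84978748) ranged from 16.2 to 26.5 CPM with atorvastatin (median 20.2) and from 12.6 to 32.1 CPM with vehicle (median 23.2). Every treated mouse lay within the range of the vehicle mice for this gene. The difference for Junb was -0.08 (SE 0.18), with an interval of -0.45 to 0.28 and an adjusted p of 0.953.

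Fosb (chr7:19302696-19310118), whose full-length and truncated (ΔFosB) proteins also pair with JUN proteins, had the largest difference of the 10. It ranged from 0.618 to 2.34 CPM with atorvastatin (median 1.32, 15 to 48 counts) and from 0.758 to 5.99 CPM with vehicle (median 2.54, 18 to 143 counts). All 7 treated mice were below the vehicle median, while 2 vehicle mice, replicates 2 and 5, were within the treated range. Fosb differed by -1.02 (SE 0.48, interval -2.01 to -0.04), with an unadjusted p of 0.0428 and an adjusted p of 0.706 by edgeR. An exact two-sided permutation test of the mean log2 CPM gave p = 0.0641 for Fosb. The difference thus did not pass the adjusted test and is given as a value. Mean TPM of Fosb was 0.857 with atorvastatin and 1.94 with vehicle. The gene passed the filter on low values (a mean TPM above 1 in any condition) only through groups where it is higher. These p-values thus add no support to the values, and a filter on every condition leaves Fosb untested.

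Egr1, which is induced by growth factors as well as by activity, ranged from 22.3 to 43.4 CPM with atorvastatin (median 32.3) and from 26.8 to 48.3 CPM with vehicle (median 32.9). Its medians were nearly equal. The difference for Egr1 was -0.10 (SE 0.14, interval -0.40 to 0.20), with an adjusted p of 0.922. Egr3 (chr14:70077317-70082613), a related factor, ranged from 2.43 to 7.86 CPM with atorvastatin (median 4.39) and from 1.41 to 9.80 CPM with vehicle (median 2.95). A single vehicle mouse, replicate 1, held the highest value of all, and 5 of 7 treated mice were above the vehicle median. The difference for Egr3 was 0.35 (SE 0.40, interval -0.48 to 1.18), with an adjusted p of 0.901.

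Nr4a1 (chr15:101253902-101274795) ranged from 8.38 to 16.2 CPM with atorvastatin (median 12.5) and from 6.92 to 18.8 CPM with vehicle (median 13.0), so that each treated mouse lay within the vehicle range. The difference for Nr4a1 was -0.08 (SE 0.21, interval -0.51 to 0.35, adjusted p = 0.965). Npas4 (chr19:4984353-5003439) encodes a transcription factor that is largely restricted to neurons and responds to calcium entry. It ranged from 0.951 to 4.65 CPM with atorvastatin (median 2.37) and from 1.51 to 4.63 CPM with vehicle (median 2.84). These low levels rest on 21 to 113 counts per library. The difference for Npas4 was -0.24 (SE 0.40, interval -1.07 to 0.59, adjusted p = 0.934).

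Arc (chr15:74669081-74672570) ranged from 18.0 to 29.6 CPM with atorvastatin (median 23.1) and from 19.4 to 48.6 CPM with vehicle (median 27.0). The upper end of the vehicle group came from replicate 1, and 2 of 7 treated mice were above the vehicle median. The difference for Arc was -0.31 (SE 0.18, interval -0.68 to 0.06, adjusted p = 0.749). Ier2 (chr8:84661331-84662852) ranged from 4.43 to 10.8 CPM with atorvastatin (median 6.27) and from 1.43 to 9.43 CPM with vehicle (median 2.5). All 7 treated mice were above the vehicle median, while 3 vehicle mice were within the treated range. The difference for Ier2 was 0.63 (SE 0.37, interval -0.15 to 1.40, adjusted p = 0.757), and an exact two-sided permutation test of the mean log2 CPM gave p = 0.0606. Dusp1 (chr17:26505591-26508472) ranged from 9.63 to 19.9 CPM with atorvastatin (median 15.1) and from 11.1 to 20.9 CPM with vehicle (median 12.0). The groups covered almost the same span. The difference for Dusp1 was 0.11 (SE 0.19, interval -0.27 to 0.50, adjusted p = 0.933).

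Over the 10 genes the median difference between treatments was -0.08, against -0.0014 over all genes tested, with 4 differences above 0 and 6 below. For Fos, Junb, Egr1, Nr4a1 and Dusp1 the intervals ended between -0.51 and 0.50, which leaves room for changes of that size in either direction. Beside these values, 5 of 5 fibroblast markers had an unadjusted p below 0.05 between the treatments, with 0 called by edgeR at the limit used, and a summed TPM of 427 to 1116 with atorvastatin against 59.1 to 668 with vehicle. Neuron markers had 0 of 10 called and 0 at an unadjusted p below 0.05. The part of these markers in the values of the 10 genes was not tested. Cells of a type becoming fewer and cells holding less RNA each cannot be told apart in bulk tissue.

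The SCI groups, 6 wk after injury, were next set against the Uninjured Control mice. These differ from the SCI groups in surgery, injections and age together, so a change from injury alone cannot be read here. Npas4 was the 1 of the 10 genes that was called in SCI + Vehicle vs. Uninjured Control (adjusted p below 0.05 and a change above 25%), where 29.4% of all genes tested were called. In SCI + Atorvastatin vs. Uninjured Control it was again 1 of 10, against 38.9% of all genes. Calls in the upward direction, as here, were 19.8% and 24.9% of all genes, and those downward 9.55% and 14%. At an unadjusted p below 0.05 the count was also 1 of 10 in each, against 41% and 47.8% of all genes. Of all genes called, those that were higher made up 67.5% with vehicle and 64.0% with atorvastatin, but this split moved with the fit. It was 84.5% and 80.4% with limma on log2(TPM + 1), 52.6% and 47.8% where a mean TPM above 1 was required in every condition, and 12.9% and 12.4% with voom and group quality weights. The median log2 fold change of the 10 was 0.32 with vehicle and 0.32 with atorvastatin, against 0.17 and 0.21 over all genes. Both comparisons use the same 2 control mice, so their values are not independent of each other.

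Npas4 had 0 counts in both control mice and 34 to 105 counts in every SCI + Vehicle mouse. The SCI + Atorvastatin mice had 21 to 113 counts of Npas4. With 3 counts per control library as the limit, the mean level was at least 19.99-fold higher in the SCI + Vehicle group (2.87 ± 1.12 CPM, SD, n = 7) and at least 16.9-fold higher in the SCI + Atorvastatin group (2.43 ± 1.20 CPM). The SCI mice with the lowest levels were still at least 9.99-fold and 6.30-fold above that limit. The adjusted p for Npas4 was 0.00128 with vehicle and 0.000883 with atorvastatin by edgeR. The gene passed the filter on low values only through the SCI groups, where it is high, so these p-values add no support to the counts, and a filter on every condition leaves it untested. With voom and a quality weight for each group, which gives each group its own spread, it was 0.587 and 0.532 for Npas4, and 132 and 145 genes in all were called. Npas4 shared the pattern of 0 counts in both controls and counts in all 14 SCI mice with 8.86% of all genes tested. It is also the 1 gene of the 10 that overlaps another GENCODE gene on the same strand, AC124502.5, of the GENCODE biotype TEC, which has no row in the tables.

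Fos was at 12.3 and 13.3 CPM in the controls (245 and 292 counts), with 5 of 7 SCI + Vehicle mice and 7 of 7 SCI + Atorvastatin mice above the higher control. The Fos difference was 0.28 (SE 0.33, adjusted p = 0.565) with vehicle and 0.38 (SE 0.26, adjusted p = 0.281) with atorvastatin. Groups that did not overlap, here Fos and Npas4 in the atorvastatin comparison and Npas4 in the vehicle comparison, were found for 44% and 35.6% of all genes. Egr1 was at 38.4 and 31.9 CPM in the controls, inside the range of both SCI groups. The Egr1 difference was -0.06 (SE 0.24, adjusted p = 0.897) with vehicle and -0.14 (SE 0.23, adjusted p = 0.682) with atorvastatin. Nr4a1 was at 9.00 and 15.6 CPM in the controls, again inside both ranges, and differed by 0.04 (SE 0.42, adjusted p = 0.960) and -0.01 (SE 0.37, adjusted p = 0.993). Arc was at 23.9 and 15.6 CPM in the controls, and 5 of 7 SCI + Vehicle and 3 of 7 SCI + Atorvastatin mice were above both. The Arc difference was 0.54 (SE 0.37, adjusted p = 0.300) with vehicle and 0.25 (SE 0.26, adjusted p = 0.482) with atorvastatin.

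**Figure D2:**
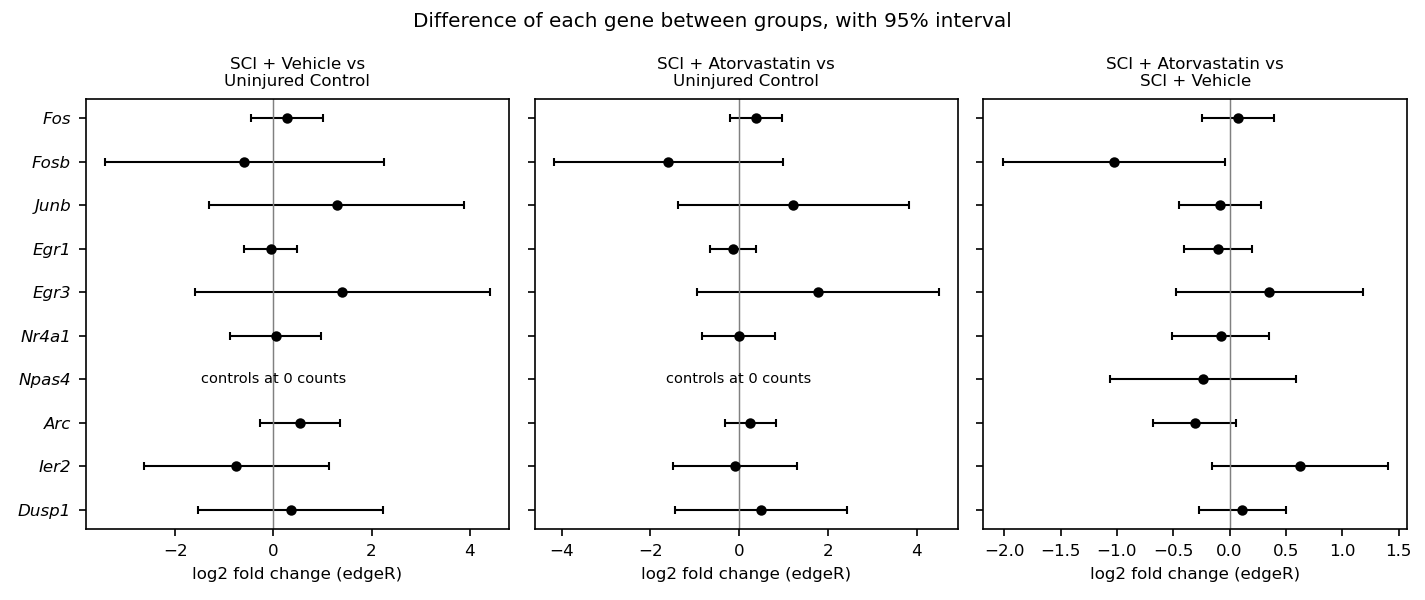
Log2 fold change (horizontal axis) of each of the 10 genes in the 3 comparisons, with points for the edgeR estimate and bars for its 95% interval. The axes differ in scale between panels. Intervals against the 2 controls are wide for Fosb, Junb, Egr3, Ier2 and Dusp1, no value is drawn for Npas4 where the controls are at 0 counts, and in the treatment comparison the Fosb interval (-2.01 to -0.04) is the one that does not reach 0.

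For the other 5 genes the 2 control mice disagreed by more than the SCI mice of a group did. Junb had 356 counts in the first control (17.9 CPM) and 0 in the second, against 299 to 729 counts in the SCI mice. Fosb had 165 counts (8.30 CPM) and 0, so that 1 control was above all 14 SCI mice and the other below all 14. Egr3 had 53 counts (2.67 CPM) and 0. Dusp1 ran the other way, with 10 counts (0.503 CPM) in the first control and 456 (20.7 CPM) in the second, a 41.1-fold gap where the 14 SCI mice spanned 2.17-fold. Ier2 had 251 counts (12.6 CPM) and 39 (1.77 CPM). Both controls lay within the range of the SCI mice for 3 of the 10 genes (Fos, Egr1 and Nr4a1), 1 of them did for 5 genes, and neither did for Fosb and Npas4. Mean TPM of Egr3 was 0.845 in the controls, 1.98 with vehicle and 3.10 with atorvastatin. Egr3 thus passed the filter on low values only through the SCI groups, where it is higher. Its p-values and calls against the controls add no support to the values, and a filter on every condition leaves it untested.

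The differences of these genes carried standard errors of 0.63 to 1.36. With vehicle they were 1.29 for Junb (adjusted p = 0.447), -0.59 for Fosb (adjusted p = 0.770), 1.41 for Egr3 (adjusted p = 0.475), -0.75 for Ier2 (adjusted p = 0.547) and 0.35 for Dusp1 (adjusted p = 0.795). With atorvastatin the log2 fold changes were 1.22 for Junb (adjusted p = 0.443), -1.60 for Fosb (adjusted p = 0.308), 1.78 for Egr3 (adjusted p = 0.280), -0.10 for Ier2 (adjusted p = 0.926) and 0.49 for Dusp1 (adjusted p = 0.698). Which control was kept decided most of these calls. In a fit with 1 control the lone mouse is assumed to vary like the SCI mice, which alone give the spread, so its p-values do not carry the gap between the controls. Without the first control, Junb, Fosb and Egr3 were called higher in both comparisons (all against a control at 0 counts) and Ier2 in the atorvastatin comparison (1.92, adjusted p = 0.00933), where 47.7% and 60.3% of all genes were called with vehicle and atorvastatin. Without the second control, Dusp1 was called higher in both (4.73, adjusted p = 4.49e-05, and 4.86, adjusted p = 5.93e-06) and Fosb lower in the atorvastatin comparison (-2.60, adjusted p = 0.00302), with 48.5% and 61.1% of all genes called. Npas4, at 0 counts in either control, was called in each of these 4 fits, which adds no support.

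The disagreement was not particular to the 10 genes. Among the 7743 genes tested whose mean count in the SCI mice lay within the span of the 10 (45.9 to 746), 25.7% had 0 counts in the first control and 29.2% in the second, and 25.2% had 0 in 1 of them alone. No SCI mouse had 0 counts in more than 1.02% of them. Where both controls had counts, 51.0% of these genes differed more than 2-fold between them, against 7.18% to 23.7% in the 42 pairs of SCI mice of the same group. Beside these differences, neuron markers were lower in the SCI groups, with 7 of 10 called lower with vehicle and 9 of 10 with atorvastatin, and a summed TPM of 6425 to 10463 in the SCI mice against 10409.6 and 12900.3 in the controls. Astrocyte markers were called higher in 4 of 6 in both comparisons, fibroblast markers in 0 and 4 of 5, smooth muscle or pericyte markers in 2 and 4 of 6, and endothelium markers in 0 and 1 of 6 (vehicle, then atorvastatin). Oligodendrocyte markers were called lower in 1 and 3 of 6. Microglia or macrophage markers, 3 and 4 of 6 called higher, ran from 652 to 1023 summed TPM in the SCI mice against 122 and 192 in the controls, with P2ry12 and Tmem119 at 0 in at least 1 control. Whether these shifts, or the liver transcripts in the controls, play a part in the values of the 10 genes was not tested.

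A level in TPM did not always follow the counts. Nr4a1 was at 9.00 and 15.6 CPM in the 2 controls, a 1.73-fold gap, but at 1.62 and 17.7 TPM. Its ratio of TPM to CPM was 0.180 in the first control and 0.628 to 1.24 in the SCI mice. For Npas4 the same ratio ran from 0.185 in SCI + Vehicle replicate 5 to 0.914 in SCI + Vehicle replicate 4. For Junb, Egr1 and Arc it stayed within 1.32-fold, 1.31-fold and 1.36-fold over all 16 mice.

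Genes of the same pathways were described from lists of related genes, whose counts stand beside the shares of all genes called (29.4% with vehicle and 38.9% with atorvastatin). Those called higher were 19.8% and 24.9% of all genes, and those lower 9.55% and 14%. Zfp36, Atf3, Batf3, Dusp2 and Crh had 0 counts in both controls and counts in all SCI mice, like 8.86% of all genes tested. As with Npas4, they passed the filter on low values only through the SCI groups, so their calls add no support to the counts. Of 25 other immediate early genes, 7 were called higher and 1 lower in SCI + Vehicle vs. Uninjured Control, and 6 higher and 3 lower in SCI + Atorvastatin vs. Uninjured Control, with medians of 0.46 and 0.78. Zfp36, which encodes an RNA-binding protein that speeds mRNA decay, had 0 counts in both controls and 194 to 397 counts in the SCI mice, at least 95.3-fold and 99.4-fold higher in the mean. Mcl1, a survival factor of the BCL2 family, rose by 0.66 (SE 0.12, adjusted p = 0.00314) and 0.81 (SE 0.11, adjusted p = 0.000369) on the log2 scale. Rgs2, a brake on G protein signalling, rose by 1.16 (SE 0.22, adjusted p = 0.00332) with vehicle and was called with atorvastatin too. The kinase gene Plk3 fell by 1.03 (SE 0.17, adjusted p = 0.00114) with atorvastatin.

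Among 6 other AP-1 genes tested, 2 were called higher with vehicle and 3 with atorvastatin. In each comparison 2 of the called genes had 0 counts in both controls. Atf3, a factor that injured neurons induce, had 0 counts in both controls and 132 to 540 counts in the SCI mice, with means at least 99.0-fold (vehicle) and 140.1-fold (atorvastatin) above the controls. Batf3 also had 0 counts in the controls and was at least 14.6-fold and 17.7-fold higher. With vehicle Batf3 was not called by limma on log2(TPM + 1) (adjusted p = 0.215) or log2(TPM + 0.1) (adjusted p = 0.175). Jun, the main partner of FOS proteins, was at 93.1 and 56.4 CPM in the controls and 112 ± 11.4 CPM (SD, n = 7) with atorvastatin, a rise of 0.59 (SE 0.18, adjusted p = 0.0267). Without the second control the rise of Jun was 0.27 (adjusted p = 0.153), and without the first it was 1.00 (adjusted p = 0.000137). Of 5 other Egr and Nr4a genes, 0 were called with vehicle by edgeR (1 at an unadjusted p below 0.05) and 1 with atorvastatin, Nab2, a corepressor of EGR proteins, which rose by 1.44 (SE 0.29, adjusted p = 0.00298). With vehicle Nab2 differed by 1.05 (SE 0.38, adjusted p = 0.0579), and it was called by DESeq2 (adjusted p = 0.00957) and without the first control (1.21, adjusted p = 0.0253).

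Of 26 upstream regulators, kinases and factors that act on these genes, 5 were called higher with vehicle, and 7 higher and 4 lower with atorvastatin. These counts lie near the shares of all genes, 19.8% higher with vehicle, and 24.9% higher and 14% lower with atorvastatin. With vehicle 0 were called lower, against 9.55% of all genes. Mef2c, a factor that activity switches on in neurons and that microglia also express, rose by 1.18 (SE 0.21, adjusted p = 0.00225) and 1.38 (SE 0.20, adjusted p = 0.000447). Elk1 and Mef2a were called in both comparisons. With vehicle Elk1 rose by 1.15 (SE 0.26, adjusted p = 0.00843) and Mef2a by 0.73 (SE 0.19, adjusted p = 0.0151). Without the second control Mef2a was no longer called (0.37, adjusted p = 0.0596), and without the first it was 1.22. Map2k2 fell by 0.59 (SE 0.12, adjusted p = 0.00384) and the CREB coactivator gene Crtc1 fell by 0.84 (SE 0.18, adjusted p = 0.00488) with atorvastatin. The change of Map2k2 was -0.30 without the first control, short of the fold limit, and that of Crtc1 -0.49 without the second. With limma Map2k2 was not called, at -0.33 on log2(TPM + 1) (adjusted p = 0.138) and -0.33 on log2(TPM + 0.1) (adjusted p = 0.135). Of 9 other MAP kinase phosphatases, 2 were called higher in each comparison. They were Dusp16 (1.38, SE 0.39, adjusted p = 0.0236, and 1.33, SE 0.40, adjusted p = 0.0229) and Dusp2, which had 0 counts in the controls and was at least 8.54-fold and 5.96-fold higher. With atorvastatin Dusp2 was not called by limma on log2(TPM + 1) (adjusted p = 0.256) or log2(TPM + 0.1) (adjusted p = 0.182). Dusp16 ran from 0.76 and 0.70 without the second control to 2.5 and 2.45 without the first.

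Of 10 late activity genes of neurons, which follow the immediate early wave, 1 was called higher and 1 lower with vehicle, and 1 higher and 2 lower with atorvastatin. Nrn1, which encodes neuritin, fell by 1.08 (SE 0.22, adjusted p = 0.00462) and by 1.33 (SE 0.15, adjusted p = 0.000101). The opioid precursor gene Penk fell by 0.54 (SE 0.11, adjusted p = 0.00348) with atorvastatin. With limma the change of Penk was -0.25 on log2(TPM + 1) (adjusted p = 0.179) and -0.25 on log2(TPM + 0.1) (adjusted p = 0.173), not called. The stress peptide gene Crh had 0 counts in the controls and was at least 29.5-fold and 16.8-fold higher. Of 8 heat shock genes, 3 were called lower and 1 higher with vehicle, and 5 lower and 1 higher with atorvastatin. Hsph1 and Dnajb1, chaperone genes, fell by 0.68 (SE 0.10, adjusted p = 0.000636) and 0.92 (SE 0.22, adjusted p = 0.00925) with vehicle. With atorvastatin they fell by 0.69 (SE 0.11, adjusted p = 0.000713) and 0.94 (SE 0.17, adjusted p = 0.00161). The chaperone gene Hspe1 fell by 0.81 (SE 0.15, adjusted p = 0.00190) with atorvastatin and was called with vehicle too. The small heat shock gene Hspb1 rose by 2.07 (SE 0.56, adjusted p = 0.0180) with vehicle, or by 1.34 without the first control and 3.64 without the second. Hspb1 was called with atorvastatin too.

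Between the treatments, 1 gene of these lists was called. Klf4, a transcription factor of the Krüppel family, was at 16.2 ± 4.19 CPM with atorvastatin and 10.2 ± 1.37 CPM with vehicle (SD, n = 7 each). It rose by 0.66 (SE 0.17), with an unadjusted p of 0.000939 and an adjusted p of 0.680 by edgeR, and was no longer called in 12 of the 14 fits that left out 1 mouse. Atf3 differed by 0.50 (SE 0.16), with an adjusted p of 0.680, and was not called.

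**Figure D3:**
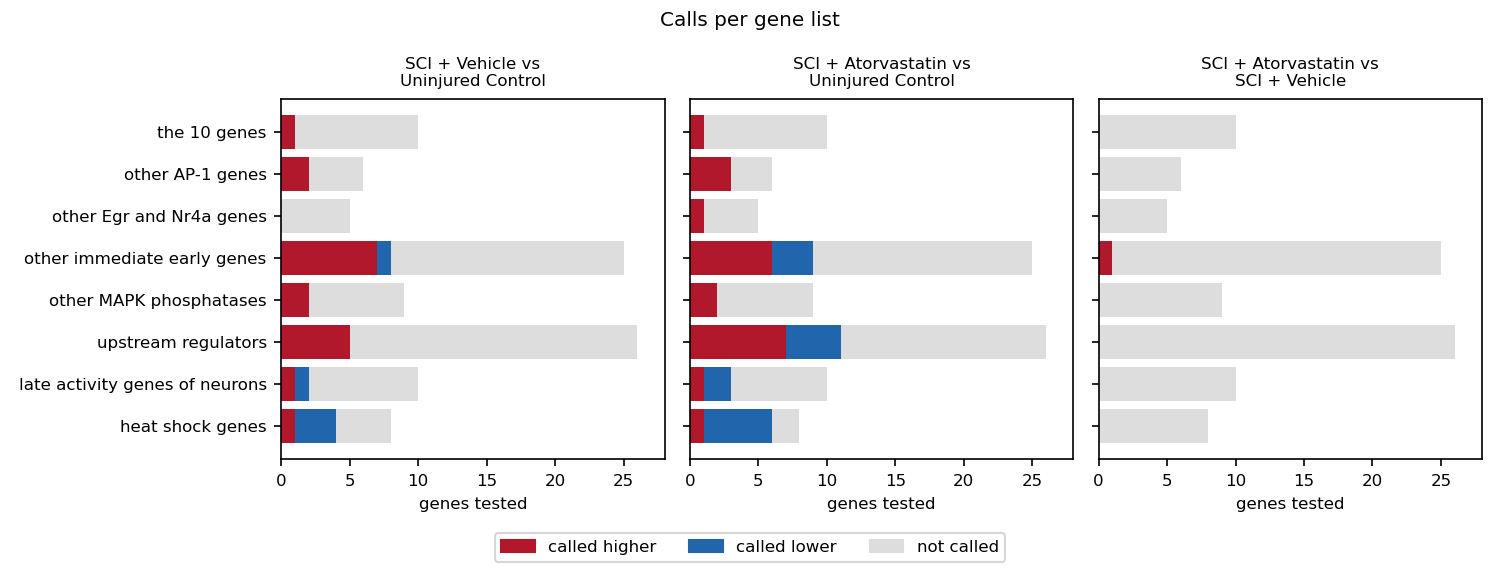
Number of genes tested (horizontal axis) in the 10 immediate early genes and 7 lists of related genes that were called higher, called lower or not called in the 3 comparisons, each bar being 1 list. In the 10 genes 1 is called higher against the controls in both comparisons, heat shock genes are called lower there in 3 and 5 of 8, and 1 gene of all lists is called between the treatments.

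Whether the 10 genes rose and fell together from mouse to mouse was asked over the 14 SCI mice, on log2 CPM centred on each treatment group. Of the 45 pairs of genes, 18 had a positive Pearson correlation and 27 a negative one, with a median of -0.04 and a range of -0.63 to 0.78, and in 23 the sign was the same within both groups. The 14 mice share these libraries, whose depths differ. No mouse was high for all genes. SCI + Vehicle replicate 7 was among the 3 highest for 6 genes and among the 3 lowest for 3, and SCI + Vehicle replicate 1 was the highest for Egr3 and Arc and the lowest for Junb.

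Of 9 relations to Fos, that with Nr4a1 passed the adjusted test. Mice with more Fos had more Nr4a1, with r = 0.78 (permutation p = 0.00198, adjusted p = 0.0178) and Spearman's rho = 0.76 (permutation p = 0.00377, adjusted p = 0.0339). The 2 mice farthest from the Fos median were SCI + Atorvastatin replicate 3 and SCI + Vehicle replicate 4. Over the 12 mice without them r was 0.68 (permutation p = 0.0231, adjusted p = 0.104), which did not pass the adjusted test. Within the SCI + Atorvastatin group r was 0.69 (exact permutation p = 0.0758) and within the SCI + Vehicle group 0.84 (exact permutation p = 0.0190), which adjust to 0.341 and 0.0857. On TPM, r was 0.64 (permutation p = 0.0351, adjusted p = 0.158).

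Depth moved with both genes. Against the log2 total count of the library, Fos had r = -0.77 (permutation p = 0.00098, adjusted p = 0.00980 over 10 genes) and rho = -0.72 (permutation p = 0.00614, adjusted p = 0.0307). Without SCI + Vehicle replicate 4 and SCI + Atorvastatin replicate 3, which were also farthest from the median total, r was -0.41 over 12 mice. Nr4a1 had r = -0.66 with the total (permutation p = 0.0234, adjusted p = 0.117) and rho = -0.85 (permutation p = 0.00038, adjusted p = 0.00380), and r = -0.52 without those mice. Within the groups r was -0.82 and -0.76 for Fos and -0.77 and -0.63 for Nr4a1 (SCI + Atorvastatin and SCI + Vehicle). The part of depth in the relation of Fos to Nr4a1 was not tested. With SCI + Vehicle replicate 4 alone left out, an alternative chosen after seeing the data, the relation of Fos to Nr4a1 had r = 0.72 (permutation p = 0.00792, adjusted p = 0.0356).

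**Figure D4:**
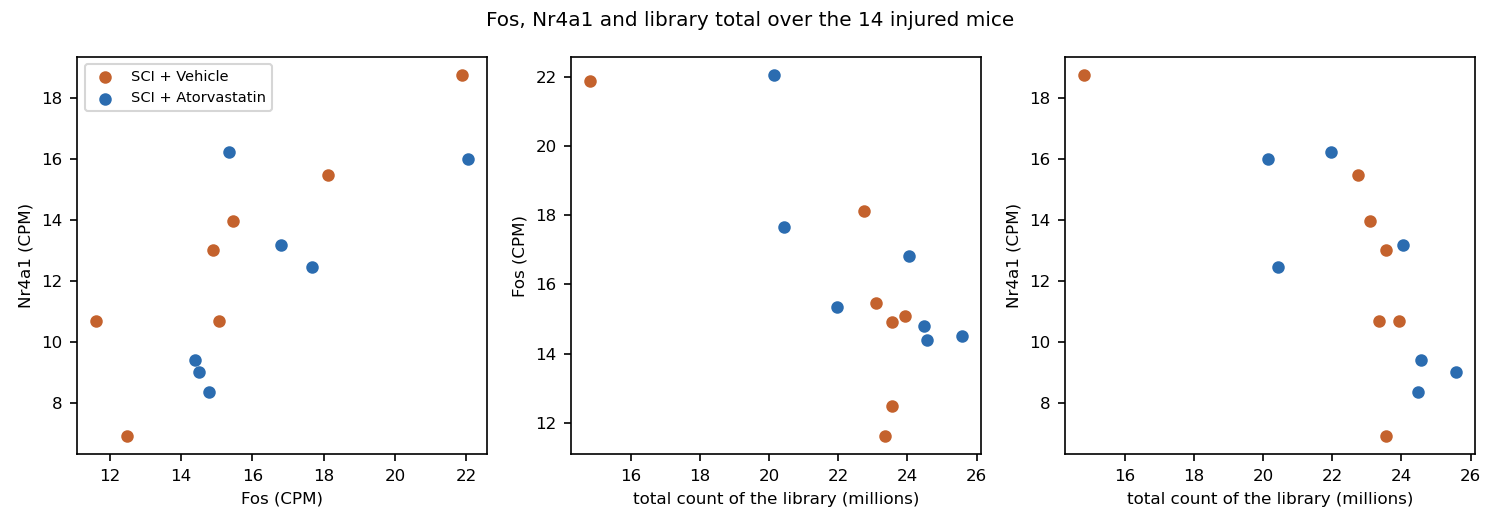
TMM-normalised CPM of Nr4a1 against that of Fos (left), and of Fos and Nr4a1 against the total count of the library (middle and right), with 1 point for each of the 14 SCI mice. The mouse with the smallest library (SCI + Vehicle replicate 4, 21.9 CPM of Fos and 18.8 CPM of Nr4a1) is high for both genes, and both fall as the library total grows.

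The other relations to Fos were weaker or turned with the mice kept. With Ier2, r was -0.53 (permutation p = 0.0965, adjusted p = 0.314) and rho -0.61 (permutation p = 0.0382, adjusted p = 0.172). The relation of Fos to Ier2 had opposite signs in the groups, 0.40 with atorvastatin (exact permutation p = 0.357) and -0.84 with vehicle (exact permutation p = 0.0135). These p-values adjust to 0.6425 and 0.0857. Without the 2 mice named above the relation of Fos to Ier2 was -0.78 (permutation p = 0.00419, adjusted p = 0.0377). With SCI + Vehicle replicate 4 alone left out, it was -0.36 (permutation p = 0.268, adjusted p = 0.805). With Dusp1, whose product damps the MAP kinases that induce Fos, r was -0.46 (permutation p = 0.105, adjusted p = 0.314) and rho -0.49 (permutation p = 0.0790, adjusted p = 0.237). Without SCI + Vehicle replicate 4 alone it was -0.73 (permutation p = 0.00670, adjusted p = 0.0356). The remaining 6, to Fosb, Junb, Egr1, Egr3, Arc and Npas4, had r between -0.20 and 0.24 with adjusted permutation p of 0.927 or more.

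The mice of the SCI + Vehicle group were more spread than those of the SCI + Atorvastatin group for 8 of the 10 genes, as they were for 66.5% of all genes tested. The SD of log2 CPM was 0.92 for Ier2 with vehicle against 0.40 with atorvastatin, 0.45 against 0.25 for Arc, and 0.79 against 0.45 for Fosb. For Npas4 and Dusp1 it was the smaller in the vehicle group, 0.50 against 0.59 and 0.32 against 0.38. The median ratio of vehicle to atorvastatin was 1.47 for the 10 genes and 1.23 for all genes.

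The genes whose pattern over the 14 SCI mice was most like the mean of the 10 (group-centred and scaled log2 CPM) were Abcc8, Zcchc12, Phyhipl, Abca5, Snhg14, Anln, Hcrtr1, Thtpa, Mipol1 and Ndufs4, with Pearson correlations from 0.83 down to 0.79. The 10 genes themselves had correlations with that mean, of which each is a part, of -0.24 (Dusp1) to 0.68 (Egr1). These values describe 14 mice that share treatment and depth, and no test was made of them.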

How the data were processed

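RNA of spinal cord from 16 mice was prepared with a stranded total RNA kit. Per the labels and the paper's methods, the authors used Trimmomatic 0.38 on the reads, STAR 2.5.4b for alignment to mm10 and RSEM 1.3.1 for quantification. They deposited whole-number counts per gene, with no normalization (the step that made them is not given in the sources used here), and TPM, normalized for gene length by the authors. Libraries held 14823292 to 25579826 counts.

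The 16091 genes whose mean TPM passed 1 in any condition went into edgeR 4.0.16 (R 4.3.3), with TMM factors, a quasi-likelihood fit to the 2 groups compared, and Benjamini-Hochberg adjustment over all of them. Calls needed a change above 25% with an adjusted p below 0.05 against the controls, or an unadjusted p below 0.001 between treatments. CPM are TMM-normalised counts. Relations between genes used log2(CPM + 0.5) and 100000 permutations within treatment groups, and exact permutation tests were two-sided. Each replicate is a separate mouse. Methods were tested on simulated data. For edgeR, each gene was simulated with the same spread in all groups, so that test does not cover the gap between the 2 controls.

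The 10 genes, the lists of related genes and markers, and the tests were chosen with earlier results of these data known. Named genes are the 10 in each comparison, the called genes of each list (the 3 with the smallest p where over 3 were called, otherwise the gene with the smallest p), and the 10 genes most like the mean of the 10. Alternatives were DESeq2 1.42.0, its size factors in edgeR, other gene filters and thresholds, all 3 groups in 1 fit, limma 3.58.1 on log2(TPM + 1) and log2(TPM + 0.1), voom with group quality weights, the replicate number as a block, each mouse left out in turn, and, chosen after seeing the data, the relations without SCI + Vehicle replicate 4.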

Additional observations from a re-analysis of the deposited data

Results flagged for a closer look

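Among 20 groups of 7 mice (10 genes in each SCI group), 2 held a mouse far from the others by Dixon's test, which chance alone does in about 1 group in 20. Fos in SCI + Atorvastatin replicate 3 was at 22.1 CPM, and its gap to the next mouse was 0.573 of the range of the group. Egr3 in SCI + Vehicle replicate 1 was at 9.80 CPM, with a gap of 0.722 of the range.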

How the results depend on the processing

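Between the treatments, 0 of the 10 genes were called under any alternative or tool run, and 242 of 247 refitted values kept their sign and side of the limit. The number of all genes called there was 17, and 37 with DESeq2, 1 with all 3 groups in 1 fit, 8 with voom and group quality weights, 0 at an adjusted p below 0.05, and 5 (without SCI + Atorvastatin replicate 2 or 7) to 32 (without SCI + Vehicle replicate 1) with 1 mouse left out. Without 1 mouse the Fos difference ran from -0.0039 to 0.18, that of Junb from -0.18 to 0.031 and that of Nr4a1 from -0.19 to 0.036. For Nr4a1 it was 0.000416 on log2(TPM + 1) and 0.00549 on log2(TPM + 0.1), where the cause was not tested.

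Against the controls, the number of the 10 genes called with vehicle (1) was 0 with a mean TPM above 1 required in every condition, which leaves out Npas4, 2 with limma on log2(TPM + 1), 0 with voom and group quality weights, and 1 to 4 with 1 mouse left out. With atorvastatin it was 0, 3 (also 3 on log2(TPM + 0.1)), 0 and 1 to 5. All genes called were 2398, 132 and 3839 to 7806 with vehicle and 3710, 145 and 5582 to 9826 with atorvastatin, for the TPM filter, voom and 1 mouse left out.

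Some differences changed sign, and the cause was not tested. With vehicle, Fosb was 0.16 and 1.26 on log2(TPM + 1) and log2(TPM + 0.1) and 2.52 with voom, where Nr4a1 was -0.025. With atorvastatin, Fosb was 0.40 on log2(TPM + 0.1) and 1.68 with voom, Nr4a1 0.92 and 1.16 on the TPM scales, and Ier2 0.25 and 0.32 there and 0.49 with voom. With 1 mouse left out, the ranges with vehicle were -0.61 to 4.73 for Dusp1, -0.18 to 0.087 for Egr1, -1.59 to 8.94 for Fosb, -1.56 to 1.27 for Ier2 and -0.30 to 0.49 for Nr4a1. With atorvastatin they were -0.031 to 0.59 for Arc, -0.47 to 4.86 for Dusp1, -0.27 to 0.0056 for Egr1, -2.60 to 7.97 for Fosb, -0.92 to 1.92 for Ier2 and -0.35 to 0.43 for Nr4a1.

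Replicate numbers do not pair the mice, since SCI mice with the same number had correlations of -0.18 to 0.10. With the number as a block, 16 genes were called with vehicle, 0 with atorvastatin and 8 between the treatments, with 0 of the 10 genes in each. In the block fit Fosb was 1.49 with vehicle and 1.79 with atorvastatin, where Egr1 was 0.11 and Ier2 0.58.

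Among relations to Fos, Nr4a1 fell short of the adjusted limit on TPM (0.64), without the 2 mice farthest from the median (0.68) and within the groups (0.69 and 0.84), while Ier2 passed it without those 2 mice (-0.78) and Dusp1 without SCI + Vehicle replicate 4 (-0.73). Signs turned for Junb (0.64) and Egr3 (-0.35) and Ier2 (0.40) within SCI + Atorvastatin, for Egr1 (0.13, and 0.089 within SCI + Vehicle), Arc (0.27) and Npas4 (0.26) without the 2 mice, for Npas4 on TPM (0.17) and within SCI + Vehicle (0.024), and for Arc (0.083) and Npas4 (0.046) without SCI + Vehicle replicate 4. The 2 controls limit every comparison with uninjured cord. Low counts limit Npas4, Egr3 and Fosb, which the filter on every condition leaves untested. The calls of the named genes against the controls were lost with voom and group quality weights and in the fit with the replicate block.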
